A study of Danio rerio with 6 samples.

Results

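The 10 genes described here are messenger RNA (mRNA) genes of the zebrafish mitochondrial genome that encode subunits of the respiratory chain. They were chosen as a gene family and listed by identifier, and the deposited table holds 32520 genes in all. Of the 10, 9 were found under the identifier given for them (mt-nd1 ENSDARG00000063895, mt-nd2 ENSDARG00000063899, mt-nd3 ENSDARG00000063914, mt-nd4 ENSDARG00000063917, mt-co1 ENSDARG00000063905, mt-co2 ENSDARG00000063908, mt-co3 ENSDARG00000063912, mt-atp6 ENSDARG00000063911 and mt-cyb ENSDARG00000063924). The identifier given for mt-nd5 matched no row used here, so mt-nd5 was taken by its symbol, whose identifier is ENSDARG00000063921. All 10 passed the filter on low counts. The other 3 protein genes of the mitochondrial genome (mt-nd4l, mt-atp8 and mt-nd6) are given beside them, and the mitochondrial ribosomal RNAs were not analysed here.

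RNA was sequenced from the ventricular apex of adult zebrafish hearts at 7 days post-cryoinjury (dpci), with the atrioventricular and aortic valves removed. Mutants carried the CRISPR/Cas9 allele cn105 of mdka, which encodes the secreted growth factor Midkine a (mdka-KO), and controls were mdka+/+, all on the AB background. Each genotype had 3 libraries, each from a pool of 3 apexes, and all 6 came from injured hearts, so no uninjured level is at hand. The mutants represent 1 allele, and p-values measure the spread between pools, not between single fish.

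The respiratory chain of the inner mitochondrial membrane passes electrons from complex I to complex III and on to oxygen at complex IV, and ATP synthase (complex V) uses the resulting proton gradient to make ATP. The mitochondrial genome encodes some core subunits of complexes I, III and IV and some membrane subunits of complex V. The nucleus encodes all other subunits, including the whole of complex II. Both mitochondrial DNA strands are transcribed as long precursors that are cut at the transfer RNAs between the genes. Most of the released mRNAs receive poly(A) tails, which is why these appear in libraries of poly(A) RNA. Heart muscle is among the tissues richest in mitochondria.

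Library totals ranged from 18940128 to 25195457 expected counts, which are the read counts per gene as RSEM estimates them. The targeted gene was lower in every mdka-KO library: mdka stood at 81.7, 132 and 139 counts per 1000000 (CPM, scaled with TMM) in mdka-KO and at 429, 730 and 1068 in mdka+/+ (log2 fold change -2.66, SE 0.36, unadjusted p = 8.81e-05 and Benjamini-Hochberg adjusted p = 0.0944 in the edgeR quasi-likelihood test). Across the table, 2157 of 17879 tested genes (12.1%) had an unadjusted p under 0.05, which is the threshold the study set, and 1 gene (0.00559%) had an adjusted p under 0.05. Below, "fell" and "rose" refer to the unadjusted threshold.

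The mitochondrial mRNAs were among the most abundant transcripts of every library. Together the 10 genes held 11.7%, 10.7% and 9.83% of all counts in the mdka-KO pools 2, 3 and 4, and 14.7%, 11.6% and 13.03% in the mdka+/+ pools 1, 2 and 4. The mean share was 10.8% ± 0.960 (SD, n = 3) in mdka-KO and 13.1% ± 1.57 (SD, n = 3) in mdka+/+, a ratio of 0.822. The genotypes overlapped in this share, which is not scaled with TMM, because mdka-KO pool 2 lay above mdka+/+ pool 2. Counting error was small beside this spread: the 95% Wilson interval was 9.82% to 9.84% in the lowest pool and 14.68% to 14.71% in the highest, and such intervals cover counting error only. With the 9 genes found by identifier alone, the shares were 10.3% ± 0.908 in mdka-KO and 12.5% ± 1.47 in mdka+/+ (SD, n = 3 each).

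By complex, the share of all counts was 2.34% ± 0.218 in mdka-KO and 2.86% ± 0.416 in mdka+/+ for the 5 complex I genes, and 1.04% ± 0.0613 and 1.32% ± 0.168 for mt-cyb, the complex III gene (SD, n = 3 each). The 3 complex IV genes held 6.20% ± 0.609 and 7.40% ± 0.844, and mt-atp6 of complex V held 1.17% ± 0.0915 and 1.502% ± 0.206 in the same order (SD, n = 3 each). Of the 4 complexes, the pools of both genotypes were separate in complex III alone in these shares, which are without TMM. In TMM-scaled CPM, mt-atp6 of complex V was separate as well. Sums over the complex I and complex IV genes were not computed with TMM, so their overlap on that scale is not given.

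When CPM were divided by coding length, mt-co2 had the highest mean level over the 6 libraries, 26401 CPM per kilobase, and mt-nd5 the lowest, 2871. In between came mt-co1 (23250), mt-atp6 (19544), mt-co3 (17458), mt-cyb (10360), mt-nd1 (6311), mt-nd4 (6027), mt-nd2 (4842) and mt-nd3 (3602), all as mean CPM per kilobase, here without TMM scaling. The complex IV and V genes thus lay above mt-cyb, which lay above all complex I genes. This order was identical in 5 of 6 libraries, and in mdka+/+ pool 4 mt-nd4 lay just above mt-nd1. Ranges over the libraries were separate for 2 of 9 neighbouring pairs, mt-co3 above mt-cyb and mt-cyb above mt-nd1, and overlapped for the other 7. The level of mt-co2 was 8.36 to 10.1 times that of mt-nd5 within a library. No correction was made for how well reads of short genes are recovered, so the place of mt-nd3, with 351 bases, is uncertain. By total counts, mt-co1 ranked 1 and mt-co2 ranked 3 among all genes in every library, and 5 of the 10 genes were among the 10 most abundant. The least abundant of the 10 by counts was mt-nd3, at rank 63 to 86, yet its smallest count of 22818 has a counting error of 0.662%.

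**Figure D1:**
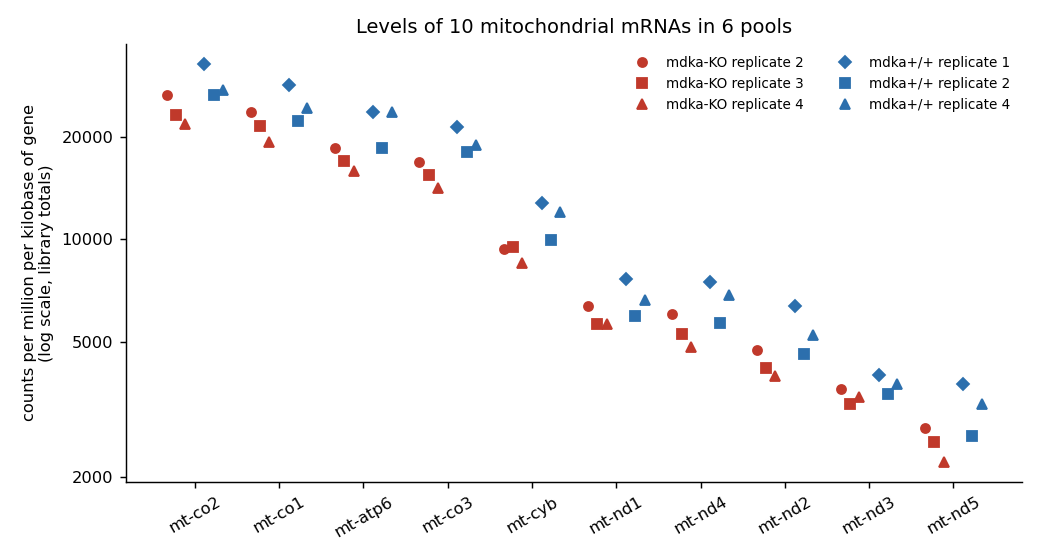
Level of each of the 10 mitochondrial mRNAs in each pool, in CPM per kilobase of gene on a log axis, from library totals without TMM and in order of the mean level. Each point is 1 pool, red for mdka-KO and blue for mdka+/+. Levels ran from 26401 (mt-co2) to 2871 (mt-nd5) on average, and on this scale the genotypes were separate for mt-co2, mt-co3 and mt-cyb, 3 of the 10.

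All 10 genes had a negative log2 fold change in mdka-KO against mdka+/+, and 7 of 10 fell at the unadjusted threshold, against 6.42% of all tested genes that fell. None of the 10 passed the adjusted threshold (adjusted p from 0.262 to 0.461 in edgeR, Benjamini-Hochberg), nor with DESeq2, which called 9, or limma-voom, which called 8 at the unadjusted threshold. Among all 17879 tested genes, 1181 fell with DESeq2 and 1071 with limma-voom. The median log2 fold change of the 10 was -0.46, beside -0.01 for all tested genes. CPM did not overlap between genotypes for 6 of 10, against 17.7% of all tested genes, and raw shares of the library did not overlap for 3 of 10 (mt-co2, mt-co3 and mt-cyb), against 22.3%. The apex is a mixture of cells, and in such bulk samples fewer cells of a type and less RNA per cell cannot be told apart.

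Scaling and single pools moved the count. With library size alone in place of TMM, 3 of the 10 fell, where 502 of 17879 tested genes fell, and the median of all tested genes moved to 0.13. Relative to the median of all tested genes, the median of the 10 was -0.45 under either scaling. A change of scaling shifts all genes by nearly the same amount, so this value cannot test the dependence on scaling. Leaving out 1 library at a time, 3 of the 10 fell without mdka-KO pool 3, mdka-KO pool 4 or mdka+/+ pool 1, 5 without mdka+/+ pool 4, and 9 without mdka-KO pool 2 or mdka+/+ pool 2. Among all tested genes, 814 of 18277, 676 of 18207, 1226 of 18379, 1380 of 18309, 940 of 18319 and 1124 of 18283 fell in these fits, in the same order. The median log2 fold change of the 10 ranged from -0.56 to -0.33 over these fits. All 10 fold changes were negative in 15 of 15 settings, which share the same libraries.

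Complex I is the entry point for electrons from NADH, and its mitochondrial subunits form the proton-pumping membrane arm. mt-nd2 (MT, 4993 to 6039, GRCz11) encodes a pumping subunit and stood at 4841, 4088 and 3923 CPM in mdka-KO and 7161, 4932 and 5743 CPM in mdka+/+. With TMM every mdka-KO pool lay below every mdka+/+ pool, and mt-nd2 fell (log2 fold change -0.47, SE 0.17, unadjusted p = 0.0245, edgeR adjusted p = 0.327). By share of the library, without TMM, mdka-KO pool 2 (0.493%) lay above mdka+/+ pool 2 (0.480%). mt-nd4 (MT, 11299 to 12679, GRCz11), another pumping subunit, stood at 8170, 6789 and 6295 CPM in mdka-KO and 11122, 8029 and 9958 CPM in mdka+/+. The highest mdka-KO pool lay above the lowest mdka+/+ pool, and mt-nd4 fell (log2 fold change -0.45, SE 0.17, unadjusted p = 0.0279, edgeR adjusted p = 0.342). mt-nd5, the pumping subunit at the far end of the membrane arm, had 4993, 4337 and 3806 CPM in mdka-KO and 7325, 4926 and 6278 CPM in mdka+/+. Here the overlap came from mdka-KO pool 2 and mdka+/+ pool 2, and mt-nd5 fell (log2 fold change -0.50, SE 0.18, unadjusted p = 0.0255, edgeR adjusted p = 0.333).

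The other complex I genes did not pass the unadjusted threshold. mt-nd1, a subunit at the junction with the arm that receives electrons, had 6087, 5145 and 5175 CPM in mdka-KO and 8016, 5941 and 6784 CPM in mdka+/+, with mdka-KO pool 2 above mdka+/+ pool 2. Its log2 fold change was -0.34 (95% interval -0.69 to 0.01, unadjusted p = 0.0573 in edgeR's test). mt-nd3, a small subunit next to mt-nd1 in the complex, had 1252, 1079 and 1135 CPM in mdka-KO and 1505, 1267 and 1379 CPM in mdka+/+. With TMM the pools did not overlap, but the difference was the smallest of the 10 (log2 fold change -0.26, 95% interval -0.54 to 0.02, unadjusted p = 0.0653 in edgeR's test). By share of the library, without TMM, mdka-KO pool 2 (0.128%) lay above mdka+/+ pool 2 (0.123%). mt-nd3 passed in none of the 6 fits that left out a library, and mt-nd1 in 2 of 6.

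Complex III takes electrons from ubiquinol, and mt-cyb (MT, 15308 to 16448, GRCz11) encodes cytochrome b, its mitochondrial subunit. mt-cyb had 10449, 10166 and 9148 CPM in mdka-KO and 15670, 11661 and 14414 CPM in mdka+/+. Every mdka-KO pool lay below every mdka+/+ pool. mt-cyb had the smallest unadjusted p of the 10 (log2 fold change -0.49, SE 0.15, unadjusted p = 0.0119, edgeR adjusted p = 0.262) and passed the unadjusted threshold in 6 of 6 fits that left out a library.

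Complex IV, cytochrome c oxidase, reduces oxygen to water, and its catalytic core consists of the products of mt-co1, mt-co2 and mt-co3. mt-co1, which binds the heme groups of the oxygen-reducing site, had 35959, 31300 and 28263 CPM in mdka-KO and 47212, 35413 and 39641 CPM in mdka+/+. The pools numbered 2 of both genotypes were nearly level, and the log2 fold change of -0.36 did not pass (95% interval -0.74 to 0.02, unadjusted p = 0.0621 in edgeR's test). mt-co2 (MT, 8130 to 8820, GRCz11), which accepts electrons from cytochrome c, had 18025, 15001 and 14193 CPM in mdka-KO and 24275, 18884 and 19911 CPM in mdka+/+. The genotypes did not overlap and mt-co2 fell (log2 fold change -0.42, SE 0.16, unadjusted p = 0.0307, edgeR adjusted p = 0.350). mt-co3 (MT, 9735 to 10520, GRCz11), another core subunit, had 13030, 11340 and 10456 CPM in mdka-KO and 17980, 14544 and 15648 CPM in mdka+/+. Its pools did not overlap either and it fell (log2 fold change -0.47, SE 0.15, unadjusted p = 0.0130, edgeR adjusted p = 0.268). mt-co3 passed in 6 of 6 fits that left out a library, mt-co2 in 3 and mt-co1 in 2.

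Complex V is represented by mt-atp6 (MT, 9052 to 9735, GRCz11), which encodes subunit a of the proton channel of ATP synthase. mt-atp6 had 12434, 10888 and 10224 CPM in mdka-KO and 17368, 12975 and 17025 CPM in mdka+/+. With TMM the mdka-KO pools lay below all mdka+/+ pools, mdka+/+ pool 2 being the nearest. By share of the library, without TMM, mdka-KO pool 2 (1.267%) lay just above mdka+/+ pool 2 (1.264%). The gene mt-atp6 fell (log2 fold change -0.50, SE 0.16, unadjusted p = 0.0148, edgeR adjusted p = 0.280). It also passed in 6 of 6 fits that left out a library, whereas mt-nd2 passed in 3 of 6 and mt-nd4 and mt-nd5 each in 2 of 6.

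The order of the pools was similar from gene to gene. By share of the library, mdka+/+ pool 1 was the highest of all 6 libraries for 9 of the 10 genes, and mdka-KO pool 4 the lowest for 9 of 10. mdka-KO pool 2 lay above mdka+/+ pool 2 for 7 of 10. Across the 6 libraries, the log2 CPM of each gene correlated with the mean of the other 9 at Pearson r of 0.969 to 0.995, a description over libraries that share their scaling and genotype.

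**Figure D2:**
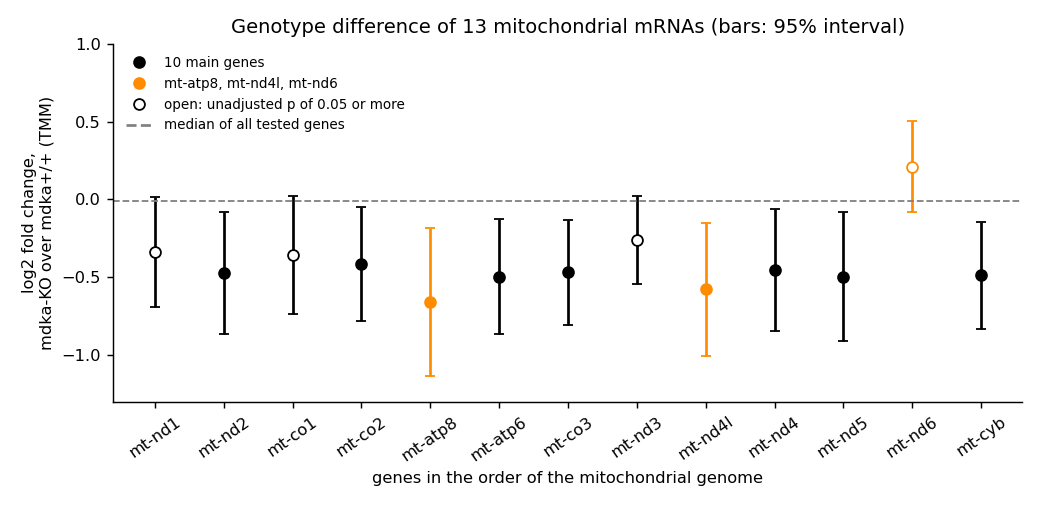
Log2 fold change of mdka-KO over mdka+/+ for the 13 mitochondrial protein genes in genome order, from edgeR with TMM on 3 pools per genotype. Points are estimates (open where the unadjusted p was 0.05 or more), bars are 95% intervals, orange marks the 3 additional genes and the dashed line is the median of all tested genes. The 10 genes ran from -0.50 to -0.26, mt-atp8 and mt-nd4l lay at -0.66 and -0.58, and mt-nd6 lay at 0.21 with an interval that spans 0.

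The other 3 protein genes of the mitochondrial genome are much less abundant by counts. mt-nd4l (MT, 11009 to 11305, GRCz11), a small complex I subunit whose reading frame shares 7 bases with mt-nd4, had 633, 549 and 508 CPM in mdka-KO and 1032, 646 and 843 CPM in mdka+/+. mt-atp8 (MT, 8894 to 9058, GRCz11), an ATP synthase subunit that shares 7 bases with mt-atp6, had 470, 471 and 440 CPM in mdka-KO and 925, 511 and 745 CPM in mdka+/+. Both fell, without overlap of the pools in TMM-scaled CPM, mt-nd4l by a log2 fold change of -0.58 (SE 0.18, unadjusted p = 0.0146, edgeR adjusted p = 0.278) and mt-atp8 by -0.66 (SE 0.20, unadjusted p = 0.0129, edgeR adjusted p = 0.268). By share of the library the genotypes overlapped for both. The share of mt-nd4l was 0.0645% in mdka-KO pool 2 and 0.0630% in mdka+/+ pool 2. That of mt-atp8 was 0.0503% in mdka-KO pool 3 and 0.0498% in mdka+/+ pool 2. Both genes are thought to be carried on the same mRNA as their overlapping neighbours. The 7 shared bases are shorter than a 60-base read, so no read can lie within them. Within a library, mt-atp8 per length was 0.171 ± 0.0129 of mt-atp6 in mdka-KO and 0.188 ± 0.0294 in mdka+/+ (SD, n = 3 each), with overlap.

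mt-nd6, a complex I subunit, is the protein gene that in vertebrates is transcribed from the opposite strand to all the others. It had 37.8, 29.9 and 33.9 CPM in mdka-KO and 27.3, 29.4 and 31.2 CPM in mdka+/+. In these TMM-scaled CPM the genotypes overlapped, and the log2 fold change was 0.21 (95% interval -0.08 to 0.50, unadjusted p = 0.135 in edgeR's test). The estimate was positive in 15 of 15 settings and passed the unadjusted threshold in 1, with library size alone (0.35, unadjusted p = 0.0222 in edgeR's test). By share of the library, without TMM, the genotypes did not overlap, as for 22.3% of all tested genes. The shares of mt-nd6 were 0.00385%, 0.00320% and 0.00360% in mdka-KO and 0.00254%, 0.00286% and 0.00297% in mdka+/+. Relative to the 10 genes, mt-nd6 stood at 0.328, 0.299 and 0.366 per 1000 of their counts in mdka-KO and 0.173, 0.248 and 0.228 in mdka+/+. These values did not overlap, with means of 0.331 ± 0.0336 and 0.216 ± 0.0388 (SD, n = 3 each), a ratio of 1.53. Whether strand was used in the counting is not given in the sources used here, and without it reads of mt-nd6 and of the opposite strand at the same place cannot be told apart. The libraries were made from poly(A) RNA, and whether mt-nd6 RNA carries a poly(A) tail was not examined. The ratio thus compares counts and need not compare RNA levels.

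Ratios within a library do not depend on scaling between libraries, so they show whether the 10 genes moved in proportion. The 5 ratios chosen were compared by exact two-sided permutation tests, adjusted over the 5, which cannot go below 0.1 with 3 pools against 3. The complex I genes held 0.378 ± 0.00620 of the counts of the complex IV genes in mdka-KO and 0.386 ± 0.0190 in mdka+/+ (SD, n = 3 each, exact p = 0.5, adjusted p = 0.625). The ratio of mt-nd5 to mt-nd4 per length was 0.469 ± 0.0137 and 0.481 ± 0.0173 (SD, n = 3 each, exact p = 0.4, adjusted p = 0.625), and that of mt-co3 to mt-atp6 was 0.903 ± 0.0115 and 0.892 ± 0.0881 (SD, n = 3 each, exact p = 0.8, adjusted p = 0.8). The pools of both genotypes overlapped in these 3 ratios.

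The remaining ratios had mt-co1 as denominator and did not overlap between genotypes. The ratio of mt-co2 to mt-co1 per length was 1.11 ± 0.0291 in mdka-KO and 1.16 ± 0.0350 in mdka+/+, and that of mt-cyb to mt-co1 was 0.425 ± 0.0264 and 0.464 ± 0.0260 (SD, n = 3 each). For each the exact p was 0.1, the smallest possible, and the adjusted p was 0.25. The margin was very narrow for mt-co2 to mt-co1, with 1.12718 in mdka-KO pool 4 and 1.12742 in mdka+/+ pool 4. For mt-cyb to mt-co1 the nearest pools lay at 0.441 (mdka-KO pool 3) and 0.448 (mdka+/+ pool 2). As a slice of the counts of the 10 genes, mt-co1 held 30.5% to 31.3% in the mdka-KO pools and 29.0% to 29.95% in the mdka+/+ pools. The slices also did not overlap for mt-nd1 and mt-nd3, which like mt-co1 were larger in mdka-KO, and for mt-co3, which was smaller. These 3 genes with a larger slice had the least negative log2 fold changes of the 10 and did not pass the unadjusted threshold. Slices and fold changes come from the same counts, so this match is no separate result. The nearest pools of mdka-KO and mdka+/+ lay at 5.14% and 5.09% for mt-nd1, 1.078% and 1.069% for mt-nd3, and 11.33% and 11.41% for mt-co3. The slices have a fixed total, so a larger slice of 1 gene lowers others. They are defined for the 10 genes only, so no share over all tested genes stands beside them.

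**Figure D3:**
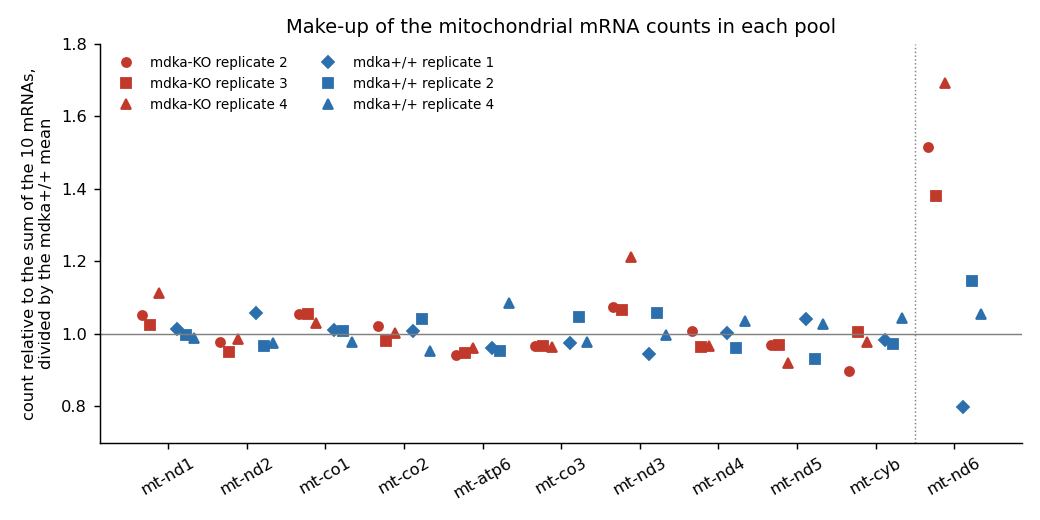
Count of each of the 10 mitochondrial mRNAs, and of mt-nd6 right of the dotted line, relative to the summed counts of the 10 in the same pool and divided by the mdka+/+ mean, so that the mdka+/+ mean is 1. Each point is 1 pool, red for mdka-KO and blue for mdka+/+. The pools were separate for mt-nd1, mt-co1 and mt-nd3 (higher in mdka-KO), mt-co3 (lower) and mt-nd6, whose mean was 1.53 times that of mdka+/+.

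The nuclear genes of the same chain were counted from a list of 95 genes of complexes I to V. Of these, 62 of 95 fell and 0 rose at the unadjusted threshold of edgeR's test, against 6.42% that fell and 5.64% that rose among all tested genes, and 93 of 95 had a negative log2 fold change. Their median was -0.33, beside -0.46 for the mitochondrial genes, and 69 of 95 did not overlap in CPM, against 17.7% of all tested genes. The genes were grouped into complexes by their symbols, which need not match the complex that holds each product. In these groups, 26 of 40 fell in complex I, 3 of 5 in complex II, 7 of 9 in complex III, 9 of 21 in complex IV and 17 of 20 in complex V. No nuclear gene of the list passed the adjusted threshold in edgeR's test, and 4 did in DESeq2. Among the most abundant genes of each group, ndufa4b, placed under complex I by its symbol alone, had a log2 fold change of -0.49 that did not pass (unadjusted p = 0.0615 in edgeR's test). sdha, the flavoprotein of complex II, fell (log2 fold change -0.42, unadjusted p = 0.0153 in edgeR's test), as did uqcrc1, a core subunit of complex III (log2 fold change -0.35, unadjusted p = 0.0323). cox4i1 of complex IV and atp5f1b, the catalytic beta subunit of ATP synthase, fell by 0.30 and 0.35 on the log2 scale (unadjusted p = 0.0372 and unadjusted p = 0.0304 in edgeR's test). uqcrc1, cox4i1 and atp5f1b did not pass without mdka-KO pool 3, mdka-KO pool 4 or mdka+/+ pool 4, sdha did not pass without mdka-KO pool 4, and ndufa4b passed without mdka+/+ pool 1.

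Together the 95 nuclear genes held 2.31% ± 0.106 of all counts in mdka-KO and 2.70% ± 0.263 in mdka+/+ (SD, n = 3 each), without overlap. The 10 mitochondrial genes had 4.66 ± 0.209 times as many counts as the nuclear genes in mdka-KO and 4.87 ± 0.639 times in mdka+/+ (SD, n = 3 each), and these ratios overlapped. The nuclear count moved with scaling and with pools. It was 10 of 95 with library size alone, 18 without mdka-KO pool 3, 15 without mdka-KO pool 4 and 30 without mdka+/+ pool 4. Among all tested genes, 502 of 17879, 814 of 18277, 676 of 18207 and 1380 of 18309 fell in these fits, in the same order. The largest difference among the nuclear genes, chosen after its value was seen, was that of cox4i1l, annotated as a gene like cox4i1, at 260 ± 25.98 CPM in mdka-KO and 525 ± 191 CPM in mdka+/+ (SD, n = 3 each, log2 fold change -1.01, unadjusted p = 0.00410 in edgeR's test).

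**Figure D4:**
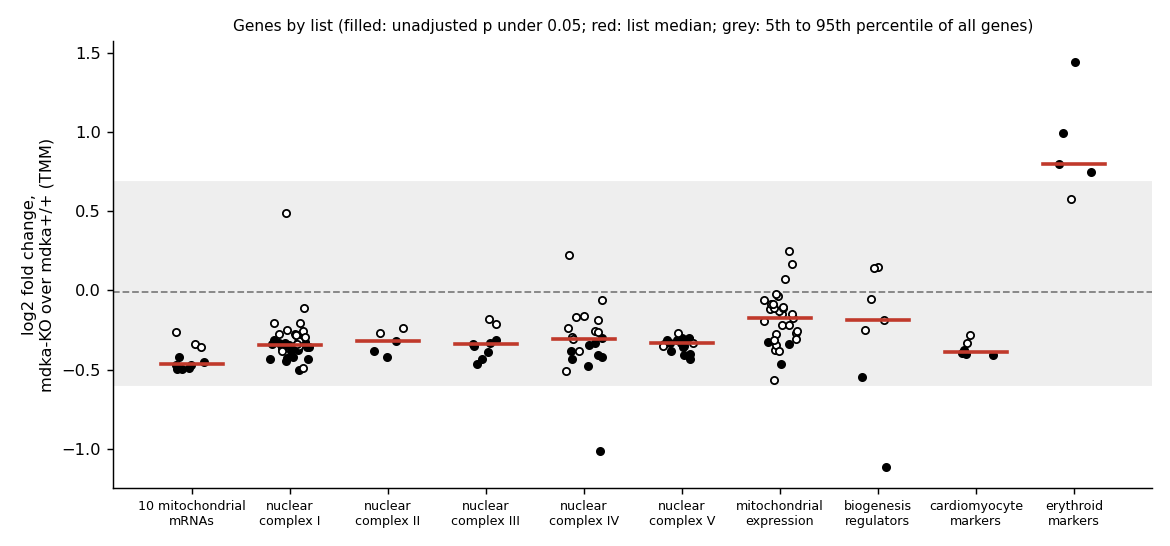
Log2 fold change of mdka-KO over mdka+/+ for the genes of each list (edgeR with TMM, 3 pools per genotype). Each point is 1 gene, filled where the unadjusted p was under 0.05, red lines are list medians, the dashed line is the median of all tested genes and the grey band holds their 5th to 95th percentile. The medians were -0.46 for the 10 mitochondrial mRNAs and -0.39 for the cardiomyocyte markers, and those of nuclear complexes I to V lay between -0.34 and -0.31.

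The next list holds genes that make, process or translate mitochondrial RNA. Of 31 that matched the table from a list of 34, 3 fell and 0 rose at the unadjusted threshold of edgeR's test, beside 6.42% that fell and 5.64% that rose among all tested genes, with a median log2 fold change of -0.17. tfb2m, an initiation factor of mitochondrial transcription, fell by 0.46 on the log2 scale (unadjusted p = 0.00450 in edgeR's test) and passed in 14 of 14 other settings. hsd17b10, a part of the enzyme that cuts mitochondrial transfer RNAs at their front ends, fell by 0.32 (unadjusted p = 0.0287), and ptcd3, a protein of the mitochondrial ribosome, fell by 0.34 on the log2 scale (unadjusted p = 0.0329). Neither passed without mdka-KO pool 3, mdka-KO pool 4, mdka+/+ pool 1 or mdka+/+ pool 4, and ptcd3 also not without mdka-KO pool 2. The log2 fold change of polrmt, the mitochondrial RNA polymerase, was -0.15 (unadjusted p = 0.365 in edgeR's test). That of tfam, which packages mitochondrial DNA and takes part in its transcription, was -0.09 (unadjusted p = 0.604 in edgeR's test). The estimate of tfam turned to 0.055 with library size alone and to 0.076 without mdka+/+ pool 4.

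Of 7 tested regulators of mitochondrial biogenesis, 2 fell and 0 rose at the unadjusted threshold, beside the same 6.42% and 5.64%. With library size alone 2 fell and 2 rose, where 502 of 17879 tested genes fell and 2077 rose. ppargc1a, the coactivator PGC-1alpha, had 14.1, 6.17 and 9.45 CPM in mdka-KO and 24.1, 20.9 and 19.6 CPM in mdka+/+. Its pools did not overlap (log2 fold change -1.12, SE 0.28, unadjusted p = 0.00410 in edgeR's test). esrra, the nuclear receptor ERRalpha, had a log2 fold change of -0.55 (unadjusted p = 0.0106 in edgeR's test). Both passed the unadjusted threshold in 14 of 14 other settings, and neither the adjusted one in edgeR's test.

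Markers of the cell types an apex could hold were also compared between the genotypes. Of 6 cardiomyocyte markers matched from 12 listed, 4 fell (actc1a, tpm4a, cmlc1 and myl7), against 6.42% of all tested genes. The markers nppa and tnnc1a did not pass, and none of the 6 markers was at 0. Their summed share of all counts was 4.76%, 4.74% and 4.06% in mdka-KO and 5.63%, 5.15% and 5.29% in mdka+/+, without overlap, and their median log2 fold change was -0.39. Per count of these markers, the 10 mitochondrial genes had 2.47, 2.26 and 2.42 counts in mdka-KO and 2.61, 2.24 and 2.46 in mdka+/+. That ratio overlapped between genotypes, with means of 2.38 ± 0.112 and 2.44 ± 0.187 (SD, n = 3 each). With library size alone 0 of the 6 markers fell, and 1 fell without mdka-KO pool 4 and 2 without mdka-KO pool 3 or mdka+/+ pool 1. Among all tested genes, 502 of 17879, 676 of 18207, 814 of 18277 and 1226 of 18379 fell in these fits, in the same order.

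**Figure D5:**
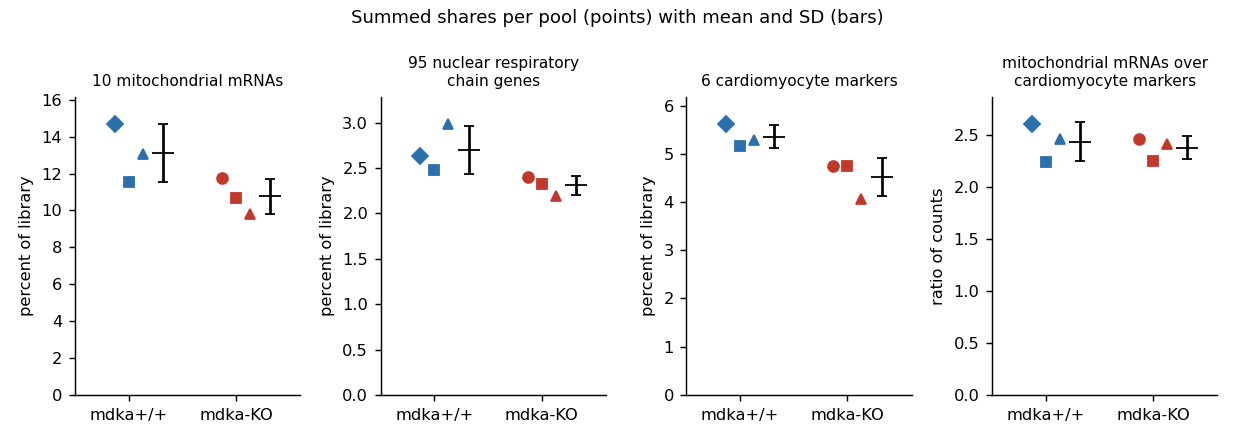
Summed counts per pool of the 10 mitochondrial mRNAs, the 95 nuclear respiratory chain genes and the 6 matched cardiomyocyte markers, as percent of the library, and the ratio of the mitochondrial to the marker counts. Each point is 1 pool, the bar beside it is the mean with SD of 3 pools per genotype, and all axes start at 0. The mitochondrial share (10.8% in mdka-KO and 13.1% in mdka+/+) and the ratio overlapped between genotypes, while the nuclear and the marker shares did not. The shares are not scaled with TMM, and their overlap can differ from that of TMM-scaled CPM.

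Of 5 erythroid markers matched from 8 listed, 4 rose (alas2, hbaa2, hbaa1 and cahz), against 5.64% of all tested genes, and hemgn did not pass. Without mdka-KO pool 2, mdka-KO pool 4 or mdka+/+ pool 1, 2 rose, where 742 of 18319, 656 of 18207 and 1202 of 18379 tested genes rose in that order. The summed share of the erythroid markers was 0.675%, 0.474% and 1.06% in mdka-KO and 0.268%, 0.489% and 0.402% in mdka+/+, highest in mdka-KO pool 4, the pool with the lowest mitochondrial share. The other mdka-KO pools did not follow that order, as pool 2 was above pool 3 in both the erythroid and the mitochondrial share (11.7% and 10.7%). The summed share of the 6 matched epicardial and fibroblast markers was 0.223% ± 0.0304 in mdka-KO and 0.152% ± 0.0136 in mdka+/+ (SD, n = 3 each). That of the 4 matched endothelial and endocardial markers was 0.0941% ± 0.00910 and 0.0780% ± 0.00247 (SD, n = 3 each). Neither share, taken without TMM, overlapped between genotypes. In the first of these lists col1a2 rose, at a mean of 1568 CPM in mdka-KO and 1098 CPM in mdka+/+, and it made up most of the sum. The list's median log2 fold change was 0.08, and the estimates of tbx18 (-0.22), wt1b (-0.20) and tcf21 (0.02) did not pass. In the endothelial list tie1 rose, the median log2 fold change was 0.21, and the estimate of kdrl (-0.30) did not pass. In TMM-scaled CPM, 2 of these 4 genes did not overlap (tie1 and cdh5), against 17.7% of all tested genes. kdrl and egfl7 overlapped, and kdrl stood at 169 CPM in mdka-KO pool 4, below every mdka+/+ pool. Of 5 matched leukocyte markers 2 rose (csf1ra and ptprc) and 1 fell (lyz), and of 4 tested smooth muscle genes 1 rose (elnb). The summed share of the smooth muscle genes, without TMM, was 0.104% ± 0.00397 in mdka-KO and 0.0829% ± 0.0136 in mdka+/+ (SD, n = 3 each), without overlap. That of the leukocyte markers was 0.0433% ± 0.00793 and 0.0335% ± 0.0112 (SD, n = 3 each), with overlap. The CPM of lyz were low, at 4.13, 5.10 and 2.44 in mdka-KO and 42.9, 9.48 and 8.21 in mdka+/+, highest in pool 1. ptprc overlapped between genotypes and passed in 8 of 14 other settings, whereas csf1ra, lyz and elnb passed in 14 of 14. Among all tested genes 5.64% rose and 6.42% fell. The part of these marker differences in the mitochondrial differences was not tested.

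Outside the mitochondrial genome, the genes whose log2 CPM followed the mean of the 10 most closely over the 6 libraries were atp23 (Pearson r = 0.997), uqcc5 (r = 0.997), ndufb4 (r = 0.993), ndufa3 (r = 0.990) and fxr1 (r = 0.990), out of 8731 genes with a mean of at least 10 CPM. They are given as a description over 6 libraries that share scaling and genotype. ndufb4 and ndufa3 encode subunits of complex I, and atp23 and uqcc5 encode assembly factors of ATP synthase and complex III. Among the other mitochondrial genes, r with that mean was 0.993 for mt-nd4l, 0.944 for mt-atp8 and -0.50 for mt-nd6.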

How the data were processed

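Poly(A) RNA libraries were made with a directional kit and sequenced as single reads of 60 bases. Per the submitters' processing notes, bcl2fastq 2.20.0.422, cutadapt, RSEM and GRCz11 were used. The authors deposited RSEM expected counts per gene, neither normalized nor filtered. All 78 values of the 13 mitochondrial protein genes were whole numbers (tolerance 0). Reads that fit more than 1 transcript are shared out by RSEM, and these whole numbers show no such sharing in fractions for the 13 genes.

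Expected counts were rounded and tested with edgeR 4.0.16 (R 4.3.3): filterByExpr, TMM, two-sided quasi-likelihood test of genotype on all 6 libraries, Benjamini-Hochberg over 17879 genes. Alternatives were relative log expression factors, library size alone, TMM without mitochondrial genes, DESeq2 1.42.0, limma-voom 3.58.1, other filters, a replicate block and leaving out each library. The code was tested on simulated data. Genotypes and pool numbers came from the labels. Symbols were matched exactly, which named 29201 of 32520 genes, and unmatched list genes were left out. Lengths came from the RefSeq gene table, whose coordinates equalled the GRCz11 ones of 8 of 8 mitochondrial genes that had both.

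Named genes are the 10 members, the other mitochondrial protein genes, mdka, the most abundant nuclear gene of each complex, list genes with unadjusted p under 0.05 plus tfam and polrmt, and the 5 closest by correlation. The members and lists were chosen with earlier results of these data known, and the marker lists serve only to describe the tissue.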

Additional observations from a re-analysis of the deposited data

How the results depend on the processing

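Under 8 other settings and 6 fits that left out a library, the number of the 10 mitochondrial genes that fell at an unadjusted p under 0.05 was 3 with library size alone, 0 with the replicate block and 3 to 9 when a library was left out, against 7 in the main analysis. It was 9 with DESeq2 and 8 with limma-voom, with no adjusted p under 0.05 for any of the 10 in any setting (smallest 0.0524, DESeq2). The number of nuclear respiratory chain genes that fell was 10 with library size alone, 8 with the replicate block and 15 to 72 when a library was left out, against 62. DESeq2 called 66 of them, 4 after adjustment. For the whole table, 2157 genes passed, and 1332 to 2772 when a library was left out. Those that fell were 502 with library size alone, 958 with the replicate block and 676 to 1380 when a library was left out, against 1148. With DESeq2 1181 fell, and with limma-voom 1071. DESeq2 gave 445 genes with an adjusted p under 0.05 against 1 with edgeR. The block could use only numbers 2 and 4, which both genotypes have. The deviations of same-numbered pools from their group means correlated at 0.183 for number 2 and -0.053 for number 4, so the numbers are not shown to pair the pools. The median log2 fold change of the 10 under the block was -0.30. The difference between genotypes in the summed share of the 10 and in the 5 ratios moved by less than the spread between pools in every alternative run for them. Without the 10 most abundant other genes in the denominator, the shares themselves were 12.1% in mdka-KO and 14.9% in mdka+/+. Of the 44 named genes recomputed, tfam alone changed sign, to 0.055 with library size alone, and its log2 fold change ranged from -0.22 to 0.076 when a library was left out. Precision is limited by 3 pools per genotype, not by depth, and the causes of these changes were not tested.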
